A study of Homo sapiens with 9 samples.

Results

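The 9 genes at the head of the ERBB to RAS pathway were followed after depletion of FIBP: the receptor genes EGFR, ERBB2 and ERBB3, the ligand genes TGFA, HBEGF, AREG and EREG, and the RAS genes NRAS and HRAS. They were chosen by gene name, and for each of them the values of all transcripts listed under its gene identifier were summed, so that 9 of the 60966 genes listed are described. H1299 cells, a human line of non-small cell lung cancer, had been transfected with a control siRNA (Scramble) or with either of 2 siRNAs against FIBP (Si-FIBP#1 and Si-FIBP#2), each in 3 samples. FIBP encodes an intracellular protein that binds acidic fibroblast growth factor. All samples were poly(A)-selected RNA-seq libraries, and every group shares the line, the transfection and the culture medium, with no other treatment named. Values are FPKM, fragment counts normalised for transcript length and library size, so that genes can be compared per unit length. The series calls the 3 samples of a group independent, but nothing says whether they were separate cultures, so the p-values measure the spread between these samples.

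ERBB receptors are tyrosine kinases of the cell surface that pair with one another when a ligand binds, and ERBB2 is the preferred partner although it has no known ligand of its own. The ligands are made as membrane-bound precursors and released by metalloproteases of the ADAM family. Active receptors recruit the adaptor GRB2 and the exchange factor SOS, which load RAS with GTP, and RAS then turns on the RAF, MEK and ERK kinases and PI3K. This route is a frequent site of mutation in lung adenocarcinoma, and H1299 is known to carry an activating NRAS mutation.

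The siRNA target was checked first. FIBP measured 88.4, 79.5 and 77.7 FPKM after Scramble, 7.49, 7.77 and 4.30 FPKM after Si-FIBP#1 and 7.13, 5.92 and 8.21 FPKM after Si-FIBP#2. All 6 siRNA samples were thus far below all 3 controls, and the means were 7.96% and 8.66% of the Scramble mean. The libraries were of similar size, with an estimated 20200000 to 23500000 fragments and 13894 to 14715 genes at or above 1 FPKM. Of 10 lung epithelial and tumour line markers, 4 reached 1 FPKM in any sample (KRT8, KRT18, KRT7 and VIM), while EPCAM, CDH1, NKX2-1 and the surfactant genes were at or near 0. Their summed FPKM was 3736 to 3962 after Scramble, 2439 to 2764 after Si-FIBP#1 and 1807 to 2510 after Si-FIBP#2, most of it from the mesenchymal gene VIM, with means of 3232, 2307 and 1988 FPKM. Of 8 blood, endothelial and fibroblast markers 3 reached 1 FPKM in any sample. Their sum was 31.7 to 33.6, 39.2 to 41.9 and 52.2 to 68.8 FPKM in the same order, nearly all of it from CD68, and PTPRC, CD3E, PECAM1 and VWF were at or near 0. All samples are of 1 line, and in bulk samples fewer cells with a transcript and less of it per cell cannot be told apart. The part of these shifts in the values below was not tested.

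The ligand TGFA fell with both siRNAs, to 67.8% and 68.6% of its Scramble mean. ERBB2 rose and EGFR and HBEGF fell after Si-FIBP#1, and NRAS rose after Si-FIBP#2. HBEGF and NRAS differed between the siRNAs. AREG and EREG were close to the floor of detection in every group, and the filter of 1 FPKM in at least 3 samples kept 7 of the 9 genes for the test.

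None of the 7 tested genes changed as much as 2-fold. With limma's moderated test on log2(FPKM + 1), Benjamini-Hochberg adjusted over 14985 genes, a call that also required a fold over 2 was made for 0 of the 7 genes in each comparison. The same rule called 5.66% of all genes after Si-FIBP#1 against Scramble, 5.05% after Si-FIBP#2 against Scramble and 0.561% between the siRNAs. At an unadjusted p under 0.05, limma counted 6, 3 and 2 of the 7 genes in these comparisons, and 54.5%, 55.2% and 29.9% of all genes tested. Changes are given on the log2(FPKM + 1) scale, which understates those of low genes.

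Without the fold requirement, 1 of the 7 genes was higher and 3 were lower after Si-FIBP#1, against 27.8% and 19.9% of all genes tested. After Si-FIBP#2, 1 was higher and 1 lower, against 31.1% and 17.7%. Median-ratio scaling gave 5 lower after Si-FIBP#1, and 0 higher and 3 lower after Si-FIBP#2, and scaling to TPM gave 5 lower after Si-FIBP#1. Between the siRNAs, 2 were higher after Si-FIBP#2 and 0 lower, against 9.58% and 5.8%. The samples of the compared groups did not overlap for 6 of 7 genes after Si-FIBP#1, where 58.9% of all genes tested did not overlap, for 3 after Si-FIBP#2, where 57.3% did not, and for 3 between the siRNAs, where 32.9% did not. Nothing particular to these genes is read from the counts. The median log2 change of the 7 genes was -0.27 after Si-FIBP#1 and -0.12 after Si-FIBP#2, and that of all genes was 0.07 and 0.11. Both comparisons use the same Scramble samples.

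In the Scramble samples the order of levels, all as FPKM, was NRAS (39.2 ± 0.849, SD, n = 3), HRAS (32.4 ± 3.45), TGFA (12.01 ± 0.184), EGFR (9.59 ± 0.101), ERBB2 (9.59 ± 0.627), HBEGF (8.06 ± 0.564), ERBB3 (2.66 ± 1.44), AREG (0.427 ± 0.080) and EREG (0.0067 ± 0.0058). EGFR and ERBB2 overlapped in this order, and the samples of every other pair of neighbours were apart. NRAS stood above 82.2% of the tested genes and HRAS above 78.3%, while EGFR, ERBB2, HBEGF and TGFA lay between 45.0% and 54.6% and ERBB3 at 22.9%. The estimated fragments behind a value ran from 2866 to 4103 for NRAS and from 1523 to 2064 for EGFR, but only from 85 to 151 for ERBB3, 7 to 43 for AREG and 0 to 3 for EREG.

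Among the receptors, EGFR (ENSG00000146648; GRCh38, chromosome 7, 55019021 to 55211628, plus strand) is the receptor for TGFA, AREG, EREG and HBEGF. Its level was 9.57, 9.70 and 9.50 FPKM after Scramble, 7.64, 7.55 and 8.11 FPKM after Si-FIBP#1 and 9.43, 7.85 and 8.67 FPKM after Si-FIBP#2. Every siRNA sample was below every Scramble sample, although 1 Si-FIBP#2 sample missed the lowest control by little. EGFR fell by 0.27 on the log2 scale after Si-FIBP#1 (SE 0.078, adjusted p = 0.016, limma), and that call was lost without Scramble replicate 2 (adjusted p = 0.051) or Si-FIBP#1 replicate 2 (adjusted p = 0.055). After Si-FIBP#2 the log2 change was -0.14 (95% interval -0.31 to 0.04, adjusted p = 0.17), and it passed when samples were rescaled by their median ratio (-0.23, adjusted p = 0.044). Over the 17 other settings it ran from -0.23 to -0.076, with adjusted p up to 0.42.

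ERBB2 (ENSG00000141736; chromosome 17, 39687914 to 39730426, plus strand) moved the other way. It was at 8.87, 10.0 and 9.88 FPKM after Scramble, 12.9, 13.2 and 13.6 FPKM after Si-FIBP#1 and 9.71, 12.9 and 12.2 FPKM after Si-FIBP#2. All Si-FIBP#1 samples exceeded the controls, whereas the first Si-FIBP#2 sample lay among them. ERBB2 rose by 0.43 on the log2 scale after Si-FIBP#1 (SE 0.0996, adjusted p = 0.0059). The log2 change after Si-FIBP#2 was 0.24 (95% interval 0.02 to 0.47, adjusted p = 0.068), and it passed without Si-FIBP#2 replicate 1 (0.36, adjusted p = 0.0068). Exons of MIEN1 and PGAP3 on the opposite strand share 571 and 194 bases with ERBB2 exons, and as no source states stranded counting, reads there cannot be told apart.

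Because EGFR and ERBB2 are partners in the same receptor pairs, their ratio was taken within each sample, where scaling cancels. EGFR to ERBB2 was 1.08, 0.97 and 0.96 after Scramble, 0.59, 0.57 and 0.60 after Si-FIBP#1 and 0.97, 0.61 and 0.71 after Si-FIBP#2. The Si-FIBP#1 samples did not overlap the controls (two-sided exact permutation p = 0.1, the smallest that 3 against 3 samples allow), and the Si-FIBP#2 samples did (exact permutation p = 0.3).

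ERBB3 (ENSG00000065361; chromosome 12, 56076799 to 56103505, plus strand), the receptor for neuregulins with little kinase activity of its own, had the widest spread between Scramble samples relative to its mean among the 7 tested genes. It was at 4.32, 1.69 and 1.98 FPKM after Scramble, 1.85, 1.97 and 1.36 FPKM after Si-FIBP#1 and 2.78, 1.73 and 2.24 FPKM after Si-FIBP#2. The groups overlapped throughout, and of the 4.32 FPKM in Scramble replicate 1, 2.10 came from ENST00000550828, a transcript of 266 bases listed at 0 in the other 8 samples. The log2 changes were -0.36 (95% interval -0.91 to 0.18, adjusted p = 0.25) and -0.12 (-0.67 to 0.43, adjusted p = 0.72), and without Scramble replicate 1 they became -0.06 and 0.19 (adjusted p = 0.80 and 0.42). A change of this size was not detectable with this spread and depth.

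**Figure D1:**
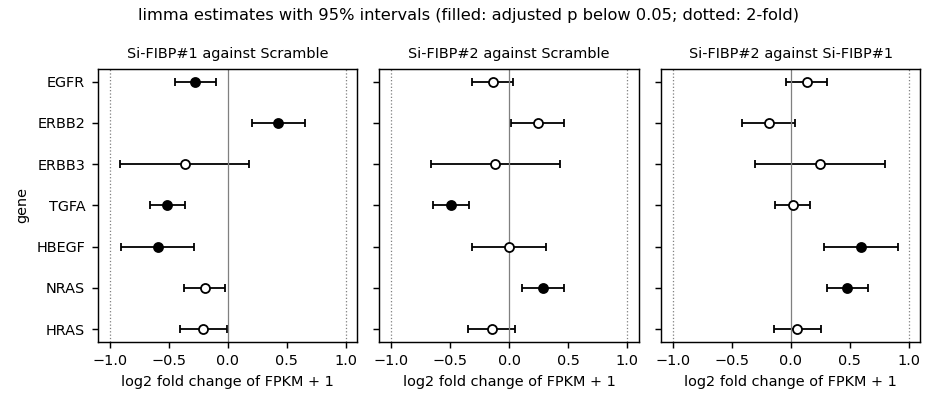
Change of each tested gene (y axis) as log2 fold change of FPKM + 1 (x axis) in the 3 comparisons, with 95% intervals from limma over 3 samples a group; filled points passed an adjusted p of 0.05 and dotted lines mark a 2-fold change. TGFA sits near -0.5 with both siRNAs. In the panel that sets the siRNAs against each other only HBEGF and NRAS are filled, and every gene but ERBB2 lies right of 0.

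TGFA (ENSG00000163235; chromosome 2, 70447280 to 70554193, minus strand), a ligand of EGFR that many carcinomas make for themselves, was the most abundant ligand transcript in Scramble, and in Si-FIBP#2 replicate 2 HBEGF was above it. It was at 12.1, 12.1 and 11.8 FPKM after Scramble, 8.60, 7.89 and 7.93 FPKM after Si-FIBP#1 and 7.93, 8.51 and 8.29 FPKM after Si-FIBP#2. The siRNA samples lay in a narrow band well under the controls. TGFA fell by 0.51 on the log2 scale after Si-FIBP#1 (SE 0.067, adjusted p = 0.00021) and by 0.49 after Si-FIBP#2 (SE 0.067, adjusted p = 0.00026). The difference between the siRNAs was 0.02 (95% interval -0.13 to 0.17, adjusted p = 0.90). Both calls held under all 17 other settings tried.

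HBEGF (ENSG00000113070; chromosome 5, 140332843 to 140346631, minus strand), which binds EGFR and ERBB4 and also heparan sulfate, separated the siRNAs. It was at 8.25, 7.43 and 8.51 FPKM after Scramble, 3.95, 5.28 and 5.93 FPKM after Si-FIBP#1 and 7.30, 9.59 and 7.42 FPKM after Si-FIBP#2. The Si-FIBP#1 samples were below all others, and the Si-FIBP#2 samples spanned the controls. HBEGF fell by 0.59 on the log2 scale after Si-FIBP#1 (SE 0.139, adjusted p = 0.0063). After Si-FIBP#2 the change was -0.00096 (95% interval -0.31 to 0.31, adjusted p = 0.996). It was higher by 0.59 after Si-FIBP#2 than after Si-FIBP#1 (95% interval 0.28 to 0.91, adjusted p = 0.020), a call lost without Si-FIBP#1 replicate 1 (0.46, adjusted p = 0.059) and with no filter on low values (adjusted p = 0.062).

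AREG (ENSG00000109321; chromosome 4, 74445134 to 74455009, plus strand) encodes amphiregulin and EREG (ENSG00000124882; chromosome 4, 74365143 to 74388751, plus strand) epiregulin. AREG was at 0.42, 0.51 and 0.35 FPKM after Scramble, 0.56, 0.53 and 0.67 FPKM after Si-FIBP#1 and 2.13, 0.52 and 0.72 FPKM after Si-FIBP#2. All siRNA samples were above the controls, by little except in Si-FIBP#2 replicate 1. Fitted without the filter, its log2 changes were 0.15 (adjusted p = 0.75) and 0.50 (adjusted p = 0.22). EREG did not exceed 0.10 FPKM in any sample and was listed at 0 in all 3 samples after Si-FIBP#2, so no change could be read at this depth.

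The summed level of the 4 ligands was 20.8, 20.1 and 20.7 FPKM after Scramble, 13.2, 13.7 and 14.5 FPKM after Si-FIBP#1 and 17.4, 18.6 and 16.4 FPKM after Si-FIBP#2. The 3 groups did not overlap one another (exact permutation p = 0.1 in each comparison, the smallest possible), and this held after rescaling to TPM or by the median ratio. Most of this sum was TGFA and HBEGF, which were both lower after Si-FIBP#1. After Si-FIBP#2, TGFA was at 68.6% and HBEGF at 100.5% of its Scramble mean. AREG went the other way, with means of 0.427, 0.587 and 1.12 FPKM. The sum of the 3 receptors gave overlapping groups, at 21.4 to 22.8, 22.4 to 23.0 and 21.9 to 23.1 FPKM. In it the EGFR and ERBB2 values went opposite ways. Without rescaling, the overlap of Scramble with either siRNA rested on Scramble replicate 1, at 22.8 FPKM with 4.32 from ERBB3. The other Scramble samples were at 21.4 FPKM. Within samples the ratio of TGFA to HBEGF was 1.47, 1.63 and 1.39 after Scramble, 2.18, 1.49 and 1.34 after Si-FIBP#1 and 1.09, 0.89 and 1.12 after Si-FIBP#2. It was lowest in the 3 Si-FIBP#2 samples (exact permutation p = 0.1 against either group).

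To show the regulatory sequence of ligands that fell and of their receptor, the bases before their annotated starts were read from the RefSeq promoter table (GRCh38.p14), with matches to the letters GGGCGG on either strand, the core bound by SP1 family factors, in capitals. The TGFA stretch ends at the first base of ENST00000295400, the HBEGF stretch at that of ENST00000230990, and each is written 5′ to 3′ on the strand of its gene.
TGFA, chr2:70554016-70554076, minus strand: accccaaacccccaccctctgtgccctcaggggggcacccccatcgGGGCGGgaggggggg
HBEGF, chr5:140346632-140346853, minus strand: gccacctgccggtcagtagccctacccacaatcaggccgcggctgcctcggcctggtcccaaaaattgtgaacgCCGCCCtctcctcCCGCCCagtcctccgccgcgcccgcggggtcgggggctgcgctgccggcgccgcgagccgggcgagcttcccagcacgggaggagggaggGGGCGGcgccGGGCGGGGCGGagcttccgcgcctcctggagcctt
EGFR, chr7:55018767-55019016, plus strand: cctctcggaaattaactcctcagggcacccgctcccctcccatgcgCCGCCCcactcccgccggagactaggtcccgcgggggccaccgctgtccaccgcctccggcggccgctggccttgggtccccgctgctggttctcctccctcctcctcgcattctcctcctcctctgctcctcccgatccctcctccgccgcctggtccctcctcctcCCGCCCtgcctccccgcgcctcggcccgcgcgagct
These stretches of 61, 222 and 250 bases held 1, 5 and 2 matches, and the last pair of matches in HBEGF overlaps. As their lengths differ, these counts cannot be compared, and the full windows of 300 bases held 4, 5 and 3. The other TGFA and EGFR windows held 0.

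Over the full windows of 300 bases, GGGCGG was found in 6 of the 10 windows of the 8 genes in the table (AREG, EGFR, HBEGF, HRAS, NRAS and TGFA), against 45.0% of all 35116 windows. The study followed the transcription factor STAT3, and TTCNNNGAA, the letters of the STAT motif, was in 0 of the 10 windows against 7.66% of all. TGANTCA, letters wider than the AP-1 motif forms TGAGTCA and TGACTCA, was in 2 of them (a second EGFR window and that of ERBB2) against 7.71%. That EGFR window held TGAGTCA and TGACTCA, while the ERBB2 match was TGATTCA, which is neither AP-1 form. The upstream bases of that EGFR window, 55109589 to 55109722, lie past the start at 55019101 of ENST00000275493, which held 98.2% of EGFR in Scramble. Those of the ERBB2 window, 39687844 to 39687913, lie before the starts of ENST00000541774 at 39699560 and ENST00000269571 at 39700080. Neither window is thus at the start of these transcripts. No match of one motif overlapped one of another in these windows, and a match here is a string of letters, not a measured site.

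NRAS (ENSG00000213281; chromosome 1, 114704469 to 114716894, minus strand), the RAS gene that is mutated in this line, was listed as 1 transcript, ENST00000369535. It was at 38.3, 39.5 and 39.9 FPKM after Scramble, 29.99, 34.9 and 38.1 FPKM after Si-FIBP#1 and 48.4, 46.9 and 49.0 FPKM after Si-FIBP#2. The 3 groups did not overlap, after Si-FIBP#1 below and Si-FIBP#2 above the controls. NRAS rose by 0.29 on the log2 scale after Si-FIBP#2 (SE 0.078, adjusted p = 0.013), a call lost after median-ratio scaling (0.19, adjusted p = 0.076). Its change after Si-FIBP#1 was -0.19 (95% interval -0.37 to -0.02, adjusted p = 0.066). That change passed after scaling to TPM (adjusted p = 0.035) or by the median ratio (adjusted p = 0.028), and without Si-FIBP#1 replicate 3 (-0.27, adjusted p = 0.016). Without Si-FIBP#1 replicate 1 it shrank to -0.10 (adjusted p = 0.20). The difference between the siRNAs, 0.48 (95% interval 0.31 to 0.66, adjusted p = 0.0042), passed under all 17 other settings.

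HRAS (ENSG00000174775; chromosome 11, 532242 to 537287, minus strand) was at 36.1, 29.3 and 31.7 FPKM after Scramble, 28.9, 28.8 and 26.0 FPKM after Si-FIBP#1 and 27.3, 28.3 and 31.7 FPKM after Si-FIBP#2. The Si-FIBP#1 samples were just under the lowest control and the Si-FIBP#2 samples overlapped it. Its log2 change was -0.20 after Si-FIBP#1 (95% interval -0.40 to -0.01, adjusted p = 0.081) and -0.15 after Si-FIBP#2 (-0.34 to 0.05, adjusted p = 0.19). The first passed after scaling to TPM (adjusted p = 0.036) or by the median ratio (0.029) and without Scramble replicate 2 (0.043), and the second after median-ratio scaling (0.040). Without Scramble replicate 1 the first shrank to -0.13 (adjusted p = 0.26). Over the 17 other settings the second ran from -0.24 to -0.069, with adjusted p up to 0.54.

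The NRAS to HRAS ratio, free of scaling, was 1.06, 1.35 and 1.26 after Scramble, 1.04, 1.21 and 1.46 after Si-FIBP#1 and 1.77, 1.66 and 1.55 after Si-FIBP#2. It was higher in every Si-FIBP#2 sample than in the other 6 (exact permutation p = 0.1 against each group), while Si-FIBP#1 and Scramble overlapped (exact permutation p = 1). NRAS and HRAS together came to 68.9 to 74.4 FPKM after Scramble, 58.9 to 64.1 after Si-FIBP#1 and 75.2 to 80.6 after Si-FIBP#2, the last of which overlapped Scramble once samples were scaled by the median ratio.

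The tables list transcripts, so the members were also compared transcript by transcript, a step chosen after their values had been seen. Of 86 listed member transcripts 16 could be tested by limma over 47662 transcripts. After Si-FIBP#1, 1 was higher and 3 were lower, and after Si-FIBP#2, 2 were higher and 3 lower, where 20.7% and 19.1% of all transcripts passed in either direction. Between the siRNAs 1 was higher and 0 lower, where 2.46% passed. Fragments shared by transcripts of a gene are divided between them by estimation, so these values are less certain than the gene sums.

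The only tested ERBB2 transcript that rose after both siRNAs was ENST00000541774, which starts at 39699560 on chromosome 17, upstream of the start of ENST00000269571 at 39700080. ENST00000406381, below the filter and not tested, was also above the controls in every siRNA sample. It was at 0.21, 0.26 and 0.28 FPKM after Scramble, 0.82, 1.09 and 0.56 FPKM after Si-FIBP#1 and 0.49, 1.16 and 0.63 FPKM after Si-FIBP#2. ENST00000541774 was at 2.61, 1.96 and 2.06 FPKM after Scramble, 5.75, 5.47 and 3.93 FPKM after Si-FIBP#1 and 3.69, 4.33 and 4.85 FPKM after Si-FIBP#2. Every siRNA sample exceeded every control, and ENST00000541774 rose by 0.91 (SE 0.158, adjusted p = 0.0048) and 0.72 (adjusted p = 0.014) on the log2 scale. ENST00000269571 was at 2.67, 2.19 and 2.82 FPKM after Scramble, 1.79, 2.11 and 2.41 FPKM after Si-FIBP#1 and 1.49, 1.53 and 1.74 FPKM after Si-FIBP#2. It fell by 0.46 after Si-FIBP#2 (adjusted p = 0.047), and its change after Si-FIBP#1 was -0.20 (adjusted p = 0.34).

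As a share of the ERBB2 sum, ENST00000541774 made up 29.4%, 19.6% and 20.9% after Scramble, 44.5%, 41.3% and 28.98% after Si-FIBP#1 and 38.0%, 33.6% and 39.8% after Si-FIBP#2. The Si-FIBP#2 shares did not overlap the control shares (exact permutation p = 0.1), and 1 Si-FIBP#1 share did (exact permutation p = 0.2). The share of ENST00000269571 was 21.9% to 30.1% after Scramble and 11.9% to 17.8% in the 6 siRNA samples, with no overlap (exact permutation p = 0.1 for each siRNA).

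**Figure D2:**
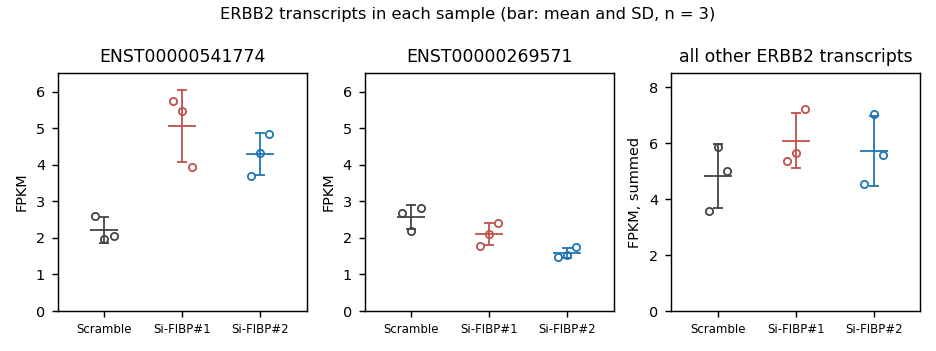
FPKM of ENST00000541774, of ENST00000269571 and of all other ERBB2 transcripts summed (y axes, linear, from 0) in each sample of Scramble, Si-FIBP#1 and Si-FIBP#2 (x axes); circles are samples and bars the mean and SD of 3. ENST00000541774 is above the controls in all 6 siRNA samples, and ENST00000269571 is lowest after Si-FIBP#2.

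TGFA, EGFR and HBEGF were each carried mainly by 1 transcript. ENST00000295400 made up 72.1% of TGFA in Scramble and was at 9.01, 8.26 and 8.70 FPKM there, 5.58, 5.76 and 5.60 FPKM after Si-FIBP#1 and 5.68, 5.00 and 6.07 FPKM after Si-FIBP#2. ENST00000295400 fell by 0.54 (adjusted p = 0.0045) and 0.56 (adjusted p = 0.0041), so the change of TGFA was in its main transcript with both siRNAs. ENST00000275493 held 98.2% of EGFR and ENST00000230990 98.5% of HBEGF. HRAS was spread more widely, with 59.4% in ENST00000311189. A lesser HRAS transcript, ENST00000451590, was at 5.87, 3.22 and 1.59 FPKM after Scramble and at 3.28, 4.96 and 0.65 FPKM after Si-FIBP#1, and was listed at 0 in all 3 Si-FIBP#2 samples (adjusted p = 0.018 against Scramble).

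The genes around these members were taken from 10 lists covering the pathway, 86 genes of which 73 were tested. After Si-FIBP#1, 15 of them were higher and 20 lower, 47.9% in all, where 47.7% of all genes tested passed. After Si-FIBP#2, 23 were higher and 16 lower, 53.4% in all, where 48.8% of all genes passed. Between the siRNAs 10 were higher after Si-FIBP#2 and 2 lower, 16.4% in all, where 15.4% of all genes passed. That split became 16 and 2 after scaling to TPM and 9 and 5 by the median ratio. Shares so near the background say nothing particular to the lists. The split after Si-FIBP#2 turned to 16 higher and 24 lower after median-ratio scaling. The median log2 change was 0.05 and 0.06 over these genes, where all genes had 0.07 and 0.11.

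Of 9 tested genes that ERK signalling induces, 7 were lower and 2 higher after Si-FIBP#1, where 19.9% of all genes were lower and 27.8% higher. After Si-FIBP#2, 5 were lower and 1 higher, where 17.7% and 31.1% were. The list medians were -0.40 and -0.26, described without a test of the list. EGR1, an immediate early transcription factor, was at 23.3% and 54.5% of its Scramble mean (log2 -1.70 and -0.83, adjusted p = 0.00025 and 0.013). DUSP5, a nuclear phosphatase that acts on ERK, went the other way, to 141% and 247% (log2 0.49 and 1.27, adjusted p = 0.00077 and 2.7e-06). SPRY2, a feedback inhibitor of receptor signalling named here after its value was seen, was the other higher gene after Si-FIBP#1 (138%, adjusted p = 0.00022), and after Si-FIBP#2 it was at 96.4% (adjusted p = 0.496). DUSP5 was the only one of the 73 genes called higher beyond 2-fold after Si-FIBP#2, and EGR1 with EPS15 the only ones called lower beyond it after Si-FIBP#1.

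Of the other ERBB family genes 2 of 8 were tested. NRG1, a ligand of ERBB3 and ERBB4, fell with both siRNAs, to 71.1% and 69.1% (adjusted p = 0.028 and 0.018), and these calls were lost in 5 and 4 of the 16 settings that kept the gene. Among 6 genes for ligand release 1 was higher in each comparison, and 2 and 1 were lower, or 2 and 2 after median-ratio scaling. ADAM9 rose to 114% and 131% (adjusted p = 0.0071 and 0.00012), and ADAM10 fell to 74.1% and 79.4% (adjusted p = 0.0018 and 0.0072). ADAM17 of the same list, named after its value was seen, did not pass, at 105% and 101% (adjusted p = 0.46 and 0.88). In the receptor attenuation list 1 of 8 genes was lower and 0 higher after Si-FIBP#1, and 2 were lower and 1 higher after Si-FIBP#2, or 4 lower and 1 higher after median-ratio scaling. EPS15, an adaptor of EGFR endocytosis, fell in both, to 39.3% and 49.3% (adjusted p = 0.00013 and 0.00057).

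Among adaptors and exchange factors, 2 of 8 were higher and 2 lower after Si-FIBP#1, and 3 higher and 2 lower after Si-FIBP#2, or 1 higher and 2 lower after median-ratio scaling. GRB2, which links the receptors to SOS, rose to 133% and 128% of its Scramble mean (adjusted p = 0.0014 and 0.0035). PTPN11, the phosphatase SHP2, fell to 75.3% and 69.3% (adjusted p = 0.0067 and 0.0015). Among other RAS GTPases, RRAS2 fell to 65.9% and 56.0% (adjusted p = 0.0095 and 0.0017).

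Of 8 genes of RAS lipid processing 5 were higher and 3 lower after Si-FIBP#1, or 3 and 3 after scaling to TPM and 4 and 3 by the median ratio. After Si-FIBP#2, 4 were higher and 1 lower, or 4 and 2 by the median ratio. RCE1, which trims the RAS tail, rose to 157% and 182% (adjusted p = 0.0082 and 0.0019), and ZDHHC9, part of the enzyme that palmitoylates HRAS and NRAS, to 135% and 134% (adjusted p = 0.0036 and 0.0037). Of 10 RAS GTPase-activating and SPRED genes, 1 was lower after Si-FIBP#1, and 1 was lower and 3 higher after Si-FIBP#2, or 2 lower and then 1 lower and 2 higher by the median ratio. RASA1, a GTPase-activating protein, was the lower gene in both, at 73.9% and 82.2% (adjusted p = 0.00083 and 0.0083).

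In the RAF, MEK and ERK list 3 of 9 were higher and 2 lower after Si-FIBP#1, and 4 were higher and 2 lower after Si-FIBP#2, or 3 higher and 3 lower in each by the median ratio. BRAF rose to 136% and 174% (adjusted p = 0.0067 and 0.00022). In the PI3K and AKT list 1 of 9 was higher after Si-FIBP#1, or 0 higher and 1 lower under TPM or median-ratio scaling, and 5 were higher after Si-FIBP#2, or 3 higher and 1 lower after median-ratio scaling. PIK3R3, a regulatory subunit of PI3K, was at 125% and 137% (adjusted p = 0.033 and 0.0068), and its first call was lost in 8 of 17 settings.

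Further genes behind these counts are named because the counts are small, and were picked after their values had been seen. RHBDF2 of the ligand release list was lower after Si-FIBP#1, and CBL was lower and LRIG2 higher in the attenuation list after Si-FIBP#2. Among the adaptors GAB2 was higher and SHC1 lower after both siRNAs, and GAB1 was higher after Si-FIBP#2. In lipid processing FNTA and PDE6D were higher and ICMT lower after both, and GOLGA7 was higher and FNTB and LYPLA1 lower after Si-FIBP#1. NF1, RASA3 and SPRED3 were the GTPase-activating and SPRED genes that were higher after Si-FIBP#2. MAP2K2 and MAPK3 were higher after both siRNAs, and KSR1 was higher after Si-FIBP#2, as were PIK3CA, PIK3CB and PIK3R1.

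The genes whose levels followed those of the 2 members with the largest mean change, TGFA and ERBB2, were sought by Pearson's r of log2(FPKM + 1) over the 9 samples, which share their libraries and grouping. Most like TGFA were DLX2 (r = 0.996), EIF5A (r = 0.993) and HNRNPAB (r = 0.992). Most like ERBB2 were C12orf60 (r = 0.983), SNX3 (r = 0.983) and ELK3 (r = 0.978). They are given as a description of the pattern.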

How the data were processed

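RNA-seq of H1299 cells gave 9 tables, 3 samples in each of 3 groups taken from the sample labels. The authors sequenced poly(A)-selected paired-end libraries and deposited 1 value per transcript. The labels name HISAT2 and StringTie; their versions, the genome build and the annotation are not given in the sources used here. The deposited values were read as FPKM, since their sums differ between samples (781058 to 818104) and low values step with transcript length. Transcripts assembled by the authors held 5.45% to 5.84% of the sum. Depth was estimated from those steps in 1036 to 1203 low values per sample, drawn from 8100 single-transcript genes. Fragment numbers are therefore approximate and cover counting error only.

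FPKM was summed per gene identifier. Genes at or above 1 FPKM in at least 3 samples were tested on log2(FPKM + 1) with limma 3.58.1 (R 4.3.3; lmFit, contrasts, eBayes with trend) in 1 fit over 9 samples, with Benjamini-Hochberg adjustment. Calls used an adjusted p below 0.05, with or without a fold over 2. The fit was tested on simulated data. Single ratios and sums used a two-sided exact permutation test (SciPy 1.17.1). Positions came from GENCODE release 29 (GRCh38) by identifier, promoters from RefSeq.

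The members, gene lists and tests were chosen with earlier results of these data known. Pathway genes named are up to 2 of each list with the largest mean change over both siRNAs among those that passed with both in 1 direction, and for the 2 members with the largest mean change the 3 genes most like them are given. Alternatives were scaling to TPM or by median ratio, a pseudocount of 0.1, no filter or one of 5 FPKM, fits of only the groups compared, the replicate number as a block, Ensembl transcripts only, and leaving out each sample. Values of some pathway list genes are not reported here.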

Additional observations from a re-analysis of the deposited data

Results flagged for a closer look

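When the siRNAs were tested against each other (limma, adjusted over all genes), 2 of the 7 tested members and 4 pathway genes named by rule passed. Of all genes tested 15.4% passed. Over all 73 tested pathway genes 10 were higher after Si-FIBP#2 and 2 lower, 16.4% in all. Scaling to TPM gave 16 and 2, and median-ratio scaling 9 and 5. Without rescaling the 2 lower ones were SPRY2 and GOLGA7, named after their values were seen. Nothing particular to these genes is read from the counts. NRAS was higher with Si-FIBP#2 than with Si-FIBP#1 by 0.48 on the log2 scale (adjusted p = 0.0042), with every Si-FIBP#2 sample above every Si-FIBP#1 sample. HBEGF was higher by 0.59 (adjusted p = 0.020), again with no overlap. Of the pathway genes, DUSP5 was higher by 0.79 (adjusted p = 0.00042), EGR1 by 0.87 (adjusted p = 0.031), BRAF by 0.32 (adjusted p = 0.048) and ADAM9 by 0.20 (adjusted p = 0.018). The DUSP5 call held in all 17 other settings, and those of EGR1, BRAF and ADAM9 were lost in 6, 12 and 4 of them. FIBP itself did not pass between the siRNAs (0.13, 95% interval -0.28 to 0.54, adjusted p = 0.69), and what sets them apart was not tested.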

How the results depend on the processing

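Each member value was recomputed under 17 other settings (16 for ERBB3, which a filter of 5 FPKM removed): of 354 values, 329 kept direction and side of the threshold, 10 newly passed, 5 no longer passed and 10 changed sign. No sign change touched a value that had passed. With a sample left out, the difference between the siRNAs ran from -0.0041 to 0.053 for TGFA (also -0.0029, and -0.019 by median-ratio scaling) and from -0.0043 to 0.099 for HRAS. With Si-FIBP#2 against Scramble it left HBEGF at -0.11 to 0.061 (0.015, 0.035 and 0.051 among them) and ERBB3 at -0.31 to 0.19 (also 0.0024). Members lower with Si-FIBP#1 numbered 5 instead of 3 under TPM and median-ratio scaling. They numbered 2 without Si-FIBP#1 replicate 2 and 4 without Si-FIBP#1 replicate 3. With Si-FIBP#2 the median ratio gave 0 higher and 3 lower instead of 1 and 1, and between the siRNAs no filter gave 1 higher instead of 2. Leaving out samples gave 1 to 2 higher with Si-FIBP#2 (2 without Si-FIBP#2 replicate 1) and 1 to 2 higher between the siRNAs (1 without Si-FIBP#1 replicate 1). The cause was not tested. Median-ratio scaling moved the median change of all genes from 0.07 to 0.02 and from 0.11 to 0.03, and the genes passing with Si-FIBP#2 from 4653 higher and 2656 lower to 3567 and 3421, and with Si-FIBP#1 from 4170 and 2976 to 3595 and 3400. Of 644 values for FIBP and the named pathway genes, 595 kept their call, 49 lost it and 0 changed sign.

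Samples with the same replicate number in different groups had correlations of deviations from -0.057 to 0.10. Those with different numbers had -0.14 to 0.049. Whether the number marks a weak pairing was not tested. With the number as a replicate block, 2 members instead of 1 were higher with Si-FIBP#2, ERBB2 being added (0.24, adjusted p = 0.040).

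The depth limits ERBB3, AREG and EREG, and 3 samples a group cannot reach an exact permutation p under 0.1. Values are RNA levels, at 1 time, in 1 line, and FPKM is relative to the other RNA of a sample.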
